A study of Mus musculus with 6 samples.

Results

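The genes described here are those of the unfolded protein response and the integrated stress response, the programs by which a cell adjusts protein folding and protein synthesis to stress. Their mRNA was measured by bulk RNA-Seq in hepatocytes of mice that had not been operated on (0 h) and of mice at 48 h after partial hepatectomy (PHx). The 37 genes were listed by name, with earlier results of these data known but by no rule on their values, and each was found by its gene name in the GENCODE M21 annotation of GRCm38 (mm10) among the 55450 genes of the count files. All 37 passed the filter on low counts (at least 10 counts in at least 3 libraries), which left 17037 genes for testing. The member Ero1lb is also known as Ero1b. The name Ddit3 belongs to 2 gene identifiers in this annotation, of which the longer one (1713 exon bases) was used, and the shorter one had 0 counts in every library.

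PHx is the surgical removal of a large part of the liver, after which the remaining hepatocytes enlarge and divide to restore the organ. Each time point had 3 libraries of total RNA, each from a separate hepatocyte preparation of a C57BL/6 mouse on a normal diet. The mice are male in the methods of the study, and their age is 10 to 12 weeks in the sample labels, which the methods put somewhat lower. The labels name no transgene, drug or sham-operated group, so that the effects of surgery, anesthesia and liver regrowth cannot be told apart. The cells were released by perfusion with collagenase and are a bulk preparation, in which fewer cells of a type and less RNA per cell cannot be told apart.

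Hepatocytes fold and export large amounts of plasma protein through the endoplasmic reticulum (ER). When unfolded protein builds up in the ER, 3 membrane sensors (IRE1 alpha, ATF6 and PERK) start signals that raise the transcription of chaperones and of the machinery that returns misfolded protein to the cytosol for degradation. PERK, together with other kinases that sense amino acid shortage, viral RNA or heme deficiency, phosphorylates the translation factor eIF2 alpha. This slows protein synthesis in general while favoring translation of ATF4, a transcription factor that turns on genes of amino acid supply and, under lasting stress, genes that end the response or favor cell death. In the liver the response is also tied to lipid and acute phase protein output through the ER-anchored factor CREBH, the product of Creb3l3.

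At 48 h after PHx, 13 of the 37 genes were lower, 1 was higher, and 23 did not pass the test (edgeR quasi-likelihood test, Benjamini-Hochberg adjusted p under 0.05 over all genes tested). The genes that fell were components of ER-associated degradation (Herpud1, Derl3, Sel1l, Syvn1 and Derl2), 3 stress-induced outputs of the integrated stress response (Chac1, Trib3 and Ppp1r15a), the sensor gene Ern1, the transcription factor genes Creb3l3 and Atf4, the oxidase gene Ero1lb and the chaperone gene Hspa5. The single gene that rose was Asns, which encodes asparagine synthetase. Of all genes tested, 19.3% were lower and 21.4% were higher, which together is 40.7%, and of the members 35.1% were lower and 2.70% were higher. A change of at least 2-fold with an adjusted p under 0.05 was found for 4 members that were lower (Chac1, Trib3, Herpud1 and Ppp1r15a) and 1 that was higher (Asns), and for 7.94% and 9.69% of all genes tested. The 13 genes that fell are also the 13 in which every library at 48 h lay under every library at 0 h, an arrangement found in 25% of all genes tested. Asns, P4hb and Sec61b had every 48 h library above every 0 h library, as 27.8% of all genes tested did. The median log2 fold change (48 h over 0 h) was -0.15 over the 37 genes and -0.00 over all genes tested, and with library size as the only scaling, which raised the median of all genes by 0.20, the median of the members was 0.06. The difference between the members' median and that of all genes was -0.14 under both scalings.

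**Figure D1:**
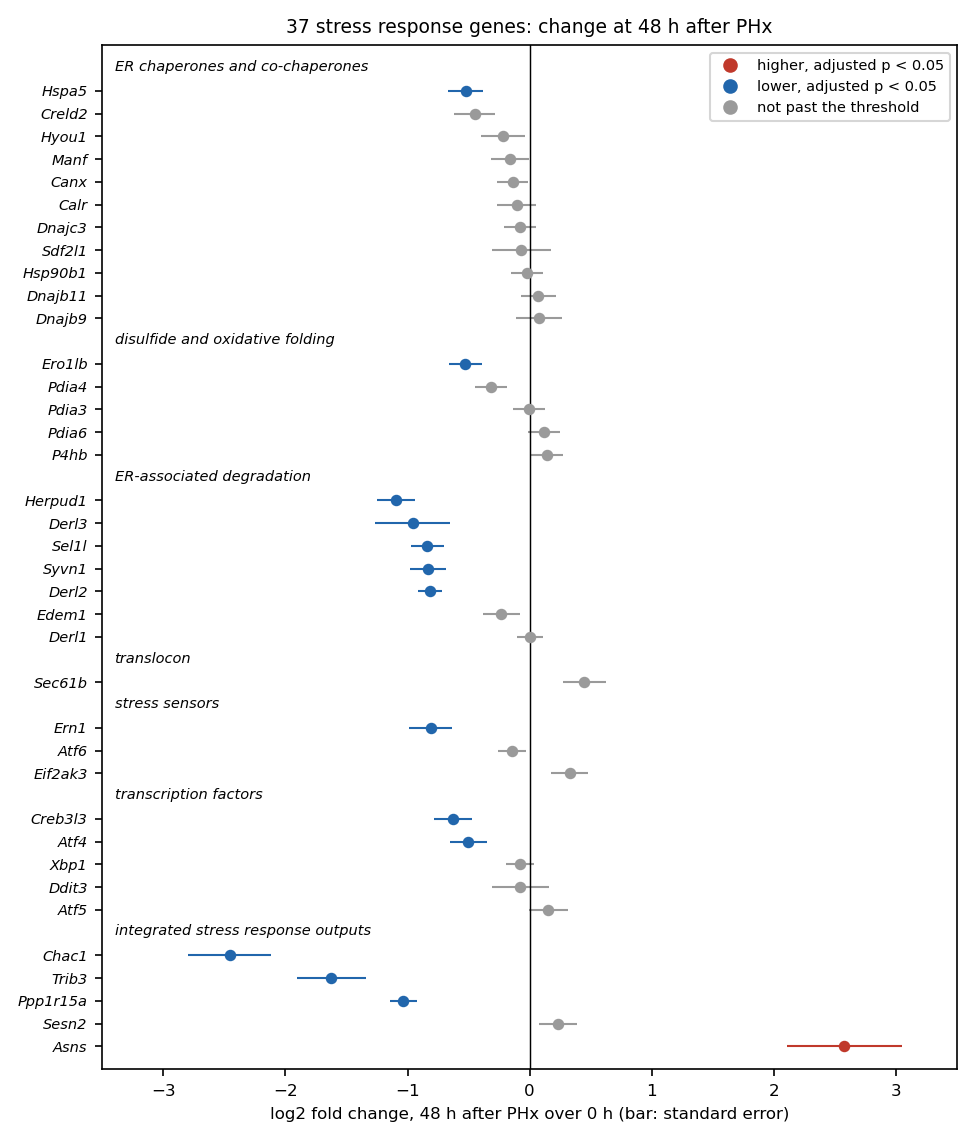
Log2 fold change (48 h after PHx over 0 h, horizontal axis) of each of the 37 genes, grouped by role, with bars for the standard error of the edgeR fit and color for the call at an adjusted p of 0.05. The blue points of ER-associated degradation lie between -1.09 and -0.82, most chaperones lie near 0, and the outputs of the integrated stress response reach from -2.46 for Chac1 to 2.58 for Asns. With library size as the only scaling, 10 of the uncalled genes change the sign of their fold change.

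Several of these genes are known to carry short response elements close to their start, which are shown here because they name the factor that classically reads each gene. The elements are the ER stress response element (ERSE, letters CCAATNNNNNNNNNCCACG, where N is any base), read by ATF6 with the factor NF-Y, the related ERSE-II (ATTGGNCCACG), the unfolded protein response element (UPRE, TGACGTG), read by ATF6 and XBP1, and the C/EBP-ATF response element (CARE, TGATGNAA), read by ATF4 with C/EBP proteins. Both strands were searched in windows from 250 bases before to 50 bases after each RefSeq transcription start on GRCm38.p6, and 33 of the 37 genes had a window (all but Hyou1, Manf, Derl1 and Atf6). An ERSE was found in 10 of the 33 genes (30.3%) and in 0.137% of the 27025 genes with a window. ERSE-II was found in 2 genes (6.06%, against 0.0444% of all), UPRE in 1 (3.03%, against 2.22%) and CARE in 4 (12.1%, against 4.51%). The genes were listed by name for this response, and several are known carriers, so that these shares do not test the list. ERSE and ERSE-II share the letters CCACG, but no match of one element overlapped a match of another in these windows.

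The matches in the genes that fell or rose at 48 h are printed below 5′ to 3′ with the fixed letters of the element in capitals, each on the strand on which it reads in the orientation given above. The first 4 carry an ERSE.
Hspa5, chr2:34772020-34772048, plus strand: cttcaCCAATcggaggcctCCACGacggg
Syvn1, chr19:6046527-6046555, plus strand: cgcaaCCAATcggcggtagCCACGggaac
Derl3, chr10:75893237-75893265, minus strand: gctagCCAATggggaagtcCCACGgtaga
Ero1lb, chr13:12565677-12565705, minus strand: ggcggCCAATgaggcgggaCCACGaggcc
Hspa5 also held the only UPRE of the set, and Herpud1 held an ERSE-II and a CARE.
Hspa5 UPRE, chr2:34771922-34771950, plus strand: gggcgtagcaaTGACGTGagttgcggagg
Herpud1 ERSE-II, chr8:94386368-94386396, plus strand: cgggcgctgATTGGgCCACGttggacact
Herpud1 CARE, chr8:94386306-94386335, minus strand: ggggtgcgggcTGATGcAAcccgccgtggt
The other 3 CARE matches lay in outputs of the integrated stress response, 1 of which rose.
Trib3, chr2:152344028-152344057, plus strand: ccccgcccggcTGATGtAAacctgagctaa
Chac1, chr2:119351038-119351067, minus strand: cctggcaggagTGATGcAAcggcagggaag
Asns, chr6:7693214-7693243, minus strand: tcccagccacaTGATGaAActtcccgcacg

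Genes that did not pass the test held the same element in the same form, and a pair of chaperone genes is shown for comparison. Hsp90b1, which encodes the ER member of the HSP90 family, held 2 ERSE matches on opposite strands, and Calr, which encodes calreticulin, held 1.
Hsp90b1, chr10:86705633-86705661, minus strand: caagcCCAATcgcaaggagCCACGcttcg
Hsp90b1, chr10:86705528-86705556, plus strand: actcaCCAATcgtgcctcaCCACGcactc
Calr, chr8:84847070-84847098, plus strand: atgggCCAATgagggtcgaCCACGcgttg
Of the 10 genes with an ERSE, 4 were lower at 48 h (Hspa5, Ero1lb, Syvn1 and Derl3), 0 were higher and 6 did not pass the test (Hsp90b1, Calr, Canx, Dnajc3, Creld2 and Pdia6), and of the 23 genes with a window but no ERSE, 9 were lower. Among all genes tested, 19.3% were lower and 21.4% were higher. With library size as the only scaling, the calls of Hspa5, Ero1lb and Derl3 were lost. Of the 4 genes with a CARE, 3 were lower (Chac1, Trib3 and Herpud1) and 1 was higher (Asns), and of the 29 with a window but no CARE, 10 were lower. Members with the same element therefore had different calls, and a match describes letters in a window only.

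**Figure D2:**
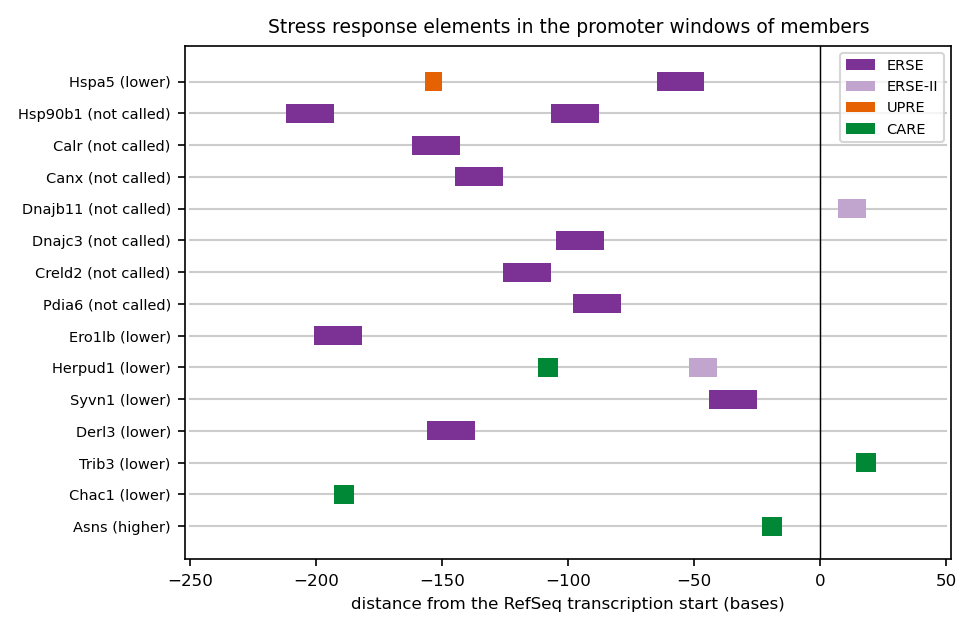
Position of each element (horizontal axis, bases from the RefSeq transcription start, marked by the vertical line) in the 15 genes that hold at least 1 match, with the call at 48 h beside the gene name. ERSE matches lie between 212 and 26 bases before the start, and genes that were lower and genes that did not pass the test both hold them.

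The role group with the highest share of falls was ER-associated degradation (ERAD), in which misfolded proteins are recognized in the ER, moved to the cytosol and degraded by the proteasome. Of its 7 measured genes, 5 were lower at 48 h and 0 were higher, against 19.3% lower and 21.4% higher among all genes tested, with a group median log2 fold change of -0.83. The summed level of the 7 genes was 1396 to 1522 CPM (counts per 1000000, scaled with TMM library sizes) at 0 h and 820 to 977 CPM at 48 h.

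Herpud1 (chr8:94386438-94395377, plus strand) encodes an ER membrane protein that organizes the ERAD complex and is itself induced by ER stress. It was at 342, 419 and 359 CPM in the 3 libraries at 0 h and at 147, 168 and 210 CPM at 48 h. The groups were far apart, since even the highest library at 48 h was well under the lowest at 0 h. Its log2 fold change was -1.09 ± 0.16 (SE, n = 3 per group, edgeR adjusted p = 0.000338).

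Sel1l and Syvn1 encode the adaptor and the ubiquitin ligase (HRD1) that form the core of the mammalian ERAD complex. Sel1l (chr12:91806043-91849157) was at 274, 257 and 290 CPM at 0 h and at 152, 132 and 175 CPM at 48 h. Syvn1 (chr19:6046576-6053712) was at 328, 279 and 357 CPM at 0 h and at 171, 158 and 212 CPM at 48 h. The 2 subunits of this core had nearly the same log2 fold change, -0.84 ± 0.13 for Sel1l (edgeR adjusted p = 0.000657) and -0.83 ± 0.15 for Syvn1 (edgeR adjusted p = 0.00138), and in both the second library at 48 h was the lowest.

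The derlins are membrane proteins that help to thread ERAD substrates out of the ER, and 2 of the 3 measured were lower, against 19.3% of all genes tested. Derl2 (chr11:71007164-71019841) was at 80.2, 87.1 and 88.2 CPM at 0 h and at 48.7, 45.7 and 50.5 CPM at 48 h, with a log2 fold change of -0.82 ± 0.10 (edgeR adjusted p = 0.000115). Derl1 was at 102 to 115 CPM at 0 h and at 106 to 118 CPM at 48 h, with a log2 fold change of 0.00 whose 95% interval ran from -0.24 to 0.24. That interval does not reach the fall of Derl2, although the difference between the genes was not itself tested. Derl3 (chr10:75893413-75895941) was scarce, with 40 to 122 counts per library, and was at 3.65, 3.93 and 2.95 CPM at 0 h and at 1.55, 1.12 and 2.74 CPM at 48 h. Its log2 fold change was -0.96 ± 0.30 (edgeR adjusted p = 0.0286), and the call was lost without the first or second library at 0 h (-0.94 and -0.88, adjusted p = 0.0686 and 0.0772), without the first or second library at 48 h (-0.87 and -0.71, adjusted p = 0.0818 and 0.0965), and with library size as the only scaling (-0.75, adjusted p = 0.0748). Edem1, which encodes a lectin-like protein that hands glycoproteins to ERAD, was at 267, 271 and 310 CPM at 0 h and at 295, 209 and 217 CPM at 48 h, and its libraries overlapped (log2 fold change -0.23, edgeR adjusted p = 0.25), while without replicate 1 at 48 h it was -0.41 and passed (adjusted p = 0.0362), and without replicate 2 at 48 h it was -0.14 (adjusted p = 0.577).

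**Figure D3:**
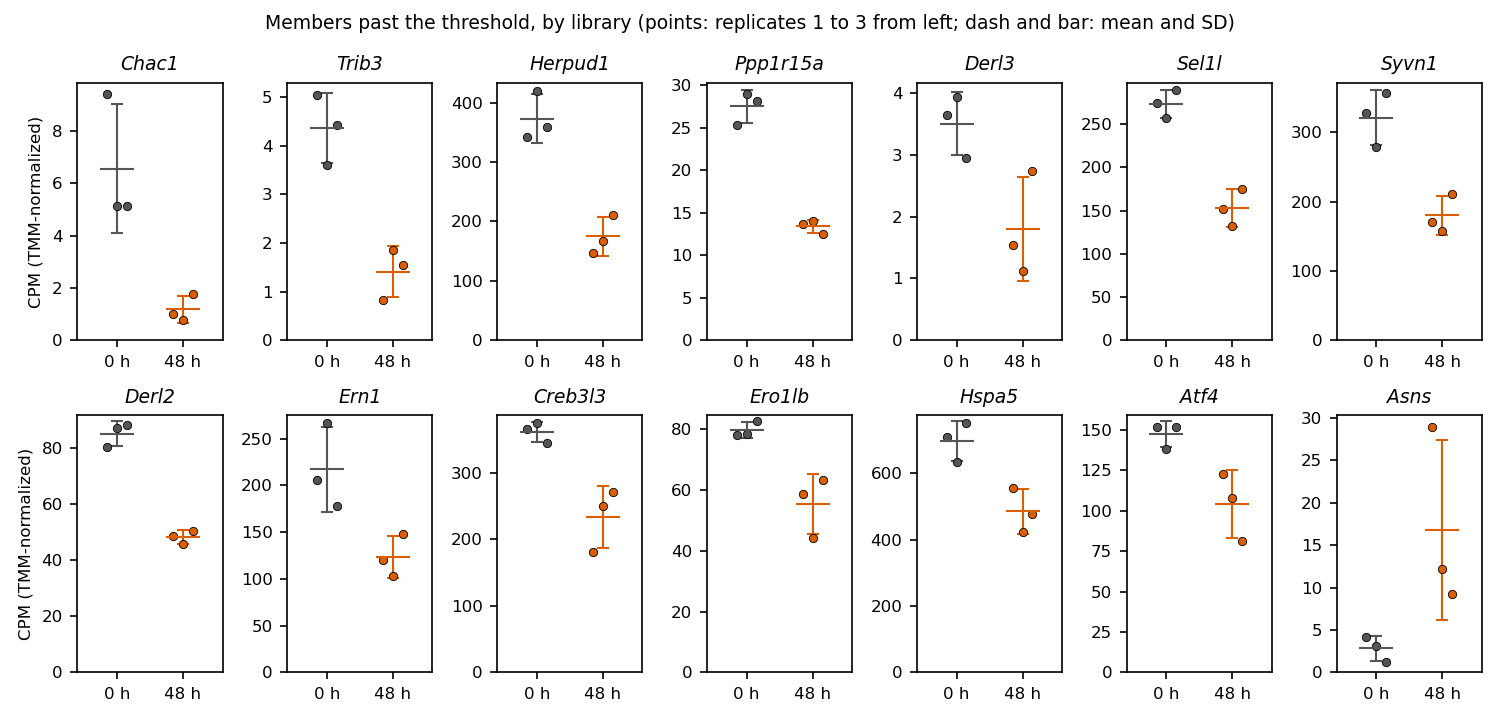
CPM (vertical axes, TMM-normalized, each starting at 0) of the 14 genes that passed the test in every library, with 3 points per time point, dashes for the mean and bars for the SD. In all 14 panels the points at 0 h and 48 h do not overlap, and Asns is the only panel in which the points at 48 h lie above.

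The ER chaperones and their co-chaperones hold unfolded chains and release them in cycles. Of the 11 measured, 1 was lower and 0 were higher, with a median log2 fold change of -0.11. Falls made up 9.09% of the group, against 19.3% of all genes tested. Its summed level was 3329 to 4027 CPM at 0 h and 2929 to 3579 CPM at 48 h.

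Hspa5 (chr2:34771970-34777547) encodes BiP, the main HSP70 of the ER, which also holds the 3 sensors inactive and is the standard reporter of the response. It was at 708, 633 and 752 CPM at 0 h and at 554, 422 and 479 CPM at 48 h. All 3 libraries at 48 h were lower than all at 0 h, and the log2 fold change was -0.53 ± 0.15 (95% interval -0.85 to -0.20, edgeR adjusted p = 0.0154). The call did not hold with library size as the only scaling (-0.33, adjusted p = 0.078), without the third library at 0 h (-0.48, adjusted p = 0.057) or without the second library at 48 h (-0.43, adjusted p = 0.0757).

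Other abundant chaperones did not pass the test, among them Calr, whose level was above that of Hspa5, and Hsp90b1 and Canx, whose levels were below it. Calr, the lectin chaperone calreticulin, was at 1109 to 1491 CPM at 0 h and at 1122 to 1352 CPM at 48 h, with a log2 fold change of -0.11 (95% interval -0.46 to 0.24). Hsp90b1 (GRP94) was at 375 to 440 CPM at 0 h and at 365 to 436 CPM at 48 h, with a log2 fold change of -0.02 (-0.31 to 0.27). Canx, the membrane-bound partner of calreticulin, had a log2 fold change of -0.14 (-0.42 to 0.14). For these 3 genes the intervals leave out a fall of the size seen for Herpud1. Of the exon bases of Hsp90b1, 10.3% overlap a gene on the opposite strand and 5.38% overlap genes on the same strand, and whether the counting used strand is not given in the sources used here.

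Dnajb9, Sdf2l1 and Hyou1 had wide spreads between libraries. Dnajb9, a co-chaperone that restrains IRE1 alpha, was at 48.4, 83.7 and 57.4 CPM at 0 h and at 59.8, 61.2 and 79.0 CPM at 48 h. Sdf2l1, a BiP cofactor, was at 12.8 to 25.3 CPM at 0 h and at 14.2 to 23.0 CPM at 48 h. Hyou1, the nucleotide exchange factor of BiP, was at 324 to 501 CPM at 0 h and at 308 to 419 CPM at 48 h. In each of these 3 the groups overlapped broadly, and the log2 fold changes of Dnajb9 (0.08), Sdf2l1 (-0.07) and Hyou1 (-0.22) were close to their standard errors or within them (SE 0.19, 0.24 and 0.18). Single libraries moved Hyou1, which was at -0.39 (adjusted p = 0.0699) without replicate 2 at 0 h and at -0.10 (adjusted p = 0.733) without replicate 2 at 48 h. Dnajb11, Dnajc3 and Manf, the last a secreted factor that is retained by BiP in unstressed cells, had log2 fold changes of 0.07, -0.08 and -0.16, and 8.85% of the exon bases of Manf overlap genes on the opposite strand. Manf was at -0.33 (adjusted p = 0.0516) without replicate 2 at 0 h, at -0.08 (adjusted p = 0.764) without replicate 1 at 0 h and at 0.04 (adjusted p = 0.845) with library size as the only scaling. Creld2, an ER stress-induced isomerase, came closest to the threshold, with 30.4, 25.1 and 31.4 CPM at 0 h and 25.6, 15.8 and 22.2 CPM at 48 h (log2 fold change -0.45 ± 0.17, edgeR adjusted p = 0.0553), and it was called lower in 9 of 15 alternative analyses, among them those without replicate 2 at 0 h (-0.55, adjusted p = 0.037) and without replicate 1 at 48 h (-0.61, adjusted p = 0.0182), while without replicate 2 at 48 h it was -0.27 (adjusted p = 0.181).

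Disulfide bonds are made in the ER by protein disulfide isomerases, which are reoxidized by the ERO1 oxidases. Of the 5 genes of this group, 1 was lower (20%, near the 19.3% of all genes) and 0 were higher. That gene was Ero1lb (chr13:12565874-12611396), which encodes the ERO1 beta oxidase. It was at 78.2, 78.3 and 82.7 CPM at 0 h and at 58.7, 44.2 and 63.3 CPM at 48 h, so that the groups were clear of each other. Its log2 fold change was -0.53 ± 0.13 (edgeR adjusted p = 0.0102), and with library size as the only scaling it was -0.32 and the call was lost (adjusted p = 0.072). The paralog Ero1l, which encodes ERO1 alpha and is not among the 37 genes, was at 15.9 to 22.1 CPM at 0 h and at 18.4 to 24.4 CPM at 48 h (log2 fold change 0.15, edgeR adjusted p = 0.466) and was chosen for mention after its values were seen.

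The 4 isomerases, which are the partners of these oxidases, did not pass the test. P4hb, the founding protein disulfide isomerase, was at 1131, 1085 and 1128 CPM at 0 h and at 1349, 1146 and 1194 CPM at 48 h. Every library at 48 h was above every library at 0 h, yet the log2 fold change was 0.14 ± 0.13 (edgeR adjusted p = 0.434). Pdia3 (-0.01) and Pdia6 (0.12) had intervals from -0.30 to 0.28 and from -0.17 to 0.41. Pdia4 was at 251 to 294 CPM at 0 h and at 200 to 251 CPM at 48 h, with a log2 fold change of -0.31 ± 0.13 (edgeR adjusted p = 0.0814), and it was called lower without replicate 2 at 0 h (-0.40, adjusted p = 0.0374) or replicate 1 at 48 h (-0.40, adjusted p = 0.0427).

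Sec61b encodes the beta subunit of the Sec61 channel, through which new secretory proteins enter the ER. It was at 13.0, 8.42 and 12.4 CPM at 0 h and at 17.3, 15.5 and 13.5 CPM at 48 h. The libraries at 48 h were all higher, with a log2 fold change of 0.45 ± 0.17 that missed the threshold (edgeR adjusted p = 0.0633), and with library size as the only scaling it was 0.65 and passed (adjusted p = 0.00834), as it did without replicate 3 at 48 h (0.54, adjusted p = 0.0453), while without replicate 2 at 0 h it was 0.27 (adjusted p = 0.148).

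Of the 3 sensor genes, 1 was lower and 0 were higher, which for so few genes is near the shares among all genes tested (19.3% lower and 21.4% higher). Ern1 (chr11:106394650-106487852) encodes IRE1 alpha, a kinase and nuclease that splices Xbp1 mRNA and degrades other mRNAs at the ER. It was at 206, 267 and 178 CPM at 0 h and at 120, 103 and 148 CPM at 48 h. Ern1 was lower in every library at 48 h, with a log2 fold change of -0.81 ± 0.18 (edgeR adjusted p = 0.0043). Atf6, whose product is cut in the Golgi to release a transcription factor, was at 157 to 167 CPM at 0 h and at 133 to 160 CPM at 48 h (log2 fold change -0.15, 95% interval -0.40 to 0.11). Eif2ak3, which encodes PERK, was the scarcest of the 3 in CPM, at 17.8, 24.2 and 19.2 CPM at 0 h and at 28.3, 21.2 and 27.3 CPM at 48 h. The libraries of Eif2ak3 overlapped (log2 fold change 0.33 ± 0.15, edgeR adjusted p = 0.107), and it passed as higher with library size as the only scaling (0.53, adjusted p = 0.0156) and without the second library at 0 h (0.46, adjusted p = 0.0297). Of its exon bases, 8.05% overlap a gene on the opposite strand.

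The transcription factors of the response act downstream of the sensors. Creb3l3 (chr10:81084324-81098874), the gene of CREBH, was at 366, 375 and 345 CPM at 0 h and at 182, 250 and 271 CPM at 48 h. The fall was present in every library, and the first library at 48 h was the lowest. Its log2 fold change was -0.63 ± 0.16 (edgeR adjusted p = 0.0088), and it was -0.42 with library size as the only scaling, where the call was lost (adjusted p = 0.0748).

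Atf4 (chr15:80255184-80257541), which is controlled mainly at translation, was at 152, 138 and 152 CPM at 0 h and at 123, 108 and 81.3 CPM at 48 h. The libraries did not overlap, and the log2 fold change was -0.50 ± 0.15 (edgeR adjusted p = 0.0215). The call was lost with library size as the only scaling (-0.31, adjusted p = 0.0969) and without any one of 4 libraries, namely replicate 1 or 3 at 0 h (-0.49 each, adjusted p = 0.0599 and 0.0598) and replicate 2 or 3 at 48 h (-0.53 and -0.35, adjusted p = 0.0531 and 0.0613).

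The other 3 factors did not pass the test. Xbp1, the target of IRE1 alpha, was at 238, 197 and 221 CPM at 0 h and at 209, 201 and 212 CPM at 48 h (log2 fold change -0.08, 95% interval -0.34 to 0.18). Counts per gene do not separate its spliced from its unspliced mRNA, so that the level of the active form was not measured. Ddit3, the gene of the pro-apoptotic factor CHOP, was scarce at both times, at 4.36, 7.74 and 4.31 CPM at 0 h and at 5.32, 4.62 and 5.63 CPM at 48 h (128 to 240 counts). Its log2 fold change was -0.08 with an interval from -0.60 to 0.45, and without the second library at 0 h, the highest of all 6, it was 0.25. Of its exon bases, 4.73% overlap genes on the opposite strand and 6.13% overlap the shorter Ddit3 identifier on the same strand. Atf5, a liver-rich factor that is translated in the same manner as ATF4, was at 274 to 415 CPM at 0 h and at 370 to 407 CPM at 48 h (log2 fold change 0.15, interval -0.20 to 0.50).

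The largest changes in either direction were among the 5 outputs of the integrated stress response. Of these 5 genes, 3 were lower (60%, against 19.3% of all genes tested) and 1 was higher (20%, near the 21.4% of all genes tested). Ppp1r15a (chr7:45522916-45526268) encodes GADD34, the inducible phosphatase subunit that removes the phosphate from eIF2 alpha and ends the response. It was at 25.3, 29.0 and 28.2 CPM at 0 h and at 13.7, 14.0 and 12.5 CPM at 48 h. The replicates were tight (coefficient of variation 6.96% and 5.74%), and the log2 fold change was -1.04 ± 0.11 (edgeR adjusted p = 4.88e-05).

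Trib3 (chr2:152337422-152344032) encodes a pseudokinase that restrains ATF4 and AKT. It was at 5.04, 3.61 and 4.43 CPM at 0 h and at 0.832, 1.85 and 1.54 CPM at 48 h. The gene was scarce (28 to 148 counts) but the groups were well apart, with a log2 fold change of -1.62 ± 0.28 (edgeR adjusted p = 0.00113). Chac1 (chr2:119351229-119354381) encodes an enzyme that degrades glutathione and lies downstream of ATF4 and CHOP. It was at 9.40, 5.13 and 5.12 CPM at 0 h and at 1.01, 0.784 and 1.77 CPM at 48 h. Chac1 had the deepest fall of the 37 genes, with a log2 fold change of -2.46 ± 0.34 (edgeR adjusted p = 0.000274), which was -2.11 without the first library at 0 h, the highest.

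Asns (chr6:7675169-7693254) encodes the enzyme that makes asparagine from aspartate and glutamine. It was at 4.16, 3.06 and 1.27 CPM at 0 h (42 to 122 counts) and at 28.9, 12.2 and 9.26 CPM at 48 h (324 to 973 counts). The spread within each group was wide (coefficient of variation 51.6% and 63.1%), but the lowest library at 48 h was still above the highest at 0 h. Its log2 fold change was 2.58 ± 0.47 (95% interval 1.54 to 3.62, edgeR adjusted p = 0.00153), and it was 1.93 without the first library at 48 h (adjusted p = 0.00243). Sesn2, the gene of a leucine sensor that restrains mTORC1, was at 9.71 to 12.7 CPM at 0 h and at 12.0 to 15.9 CPM at 48 h (log2 fold change 0.23, edgeR adjusted p = 0.258). The outputs shown with a CARE above thus included the deepest fall, Chac1, and the only rise, Asns.

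**Figure D4:**
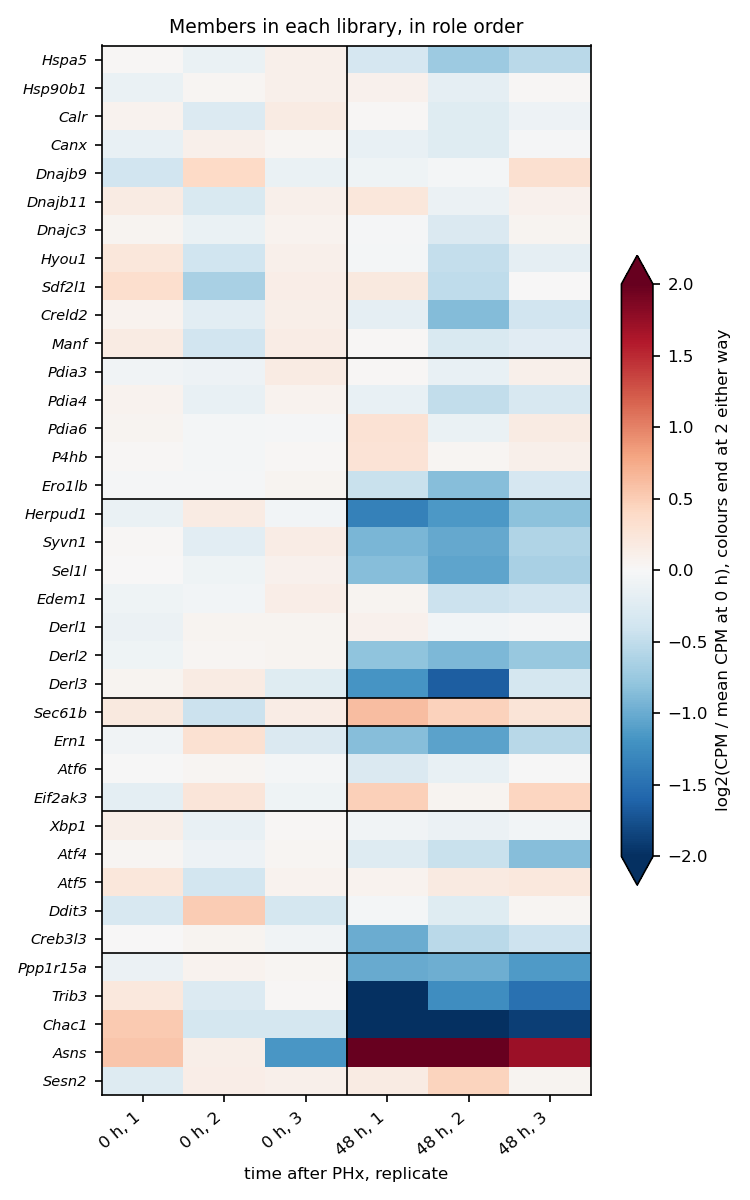
Each cell is the log2 ratio of a gene's CPM in a library (columns) to its mean CPM at 0 h, for the 37 genes in role order (rows, lines between roles), with colors that end at a ratio of 2 on the log2 scale in either direction. The ERAD rows Herpud1, Syvn1, Sel1l, Derl2 and Derl3 and the rows Ppp1r15a, Trib3 and Chac1 are blue in all 3 libraries at 48 h, while most chaperone rows are pale, and among the 3 columns at 48 h the second is the lowest in 26 of the 37 rows.

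The levels of the genes, compared per kilobase of exon, covered a wide range at 0 h. Calr (463 CPM per kb), P4hb (390), Atf5 (177), Hspa5 (165) and Herpud1 (160) had the highest levels per length, and Asns had the lowest (1.03). At 48 h, Herpud1 stood at 75.0 CPM per kb and had moved from rank 5 to rank 10 in the order of levels, and Asns stood at 6.14 CPM per kb and had moved from rank 37 to rank 29. Chac1 moved from rank 31 to 36 and Trib3 from rank 35 to 37, with levels of 0.726 and 0.662 CPM per kb at 48 h. Levels of Calr (430 CPM per kb) and P4hb (430) could not be told apart at 48 h beyond their spread between libraries.

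The libraries did not contribute evenly to these values. Among the 3 libraries at 48 h, the second was the lowest in 26 of the 37 genes, in 10 of the 11 chaperones and in all 5 genes of oxidative folding, and it was the lowest in 30.7% of all genes tested. At 0 h the second library was the lowest in 19 of the 37 genes and in 8 of the 11 chaperones, against 40.1% of all genes tested. Without the second library at 48 h, 11 of the 14 calls were kept, and Hspa5, Derl3 and Atf4 were not called.

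Genes of the same pathways that are not among the 37 are given for comparison, by lists that were drawn up from general knowledge with earlier results of these data known. Over 191 tested genes of 11 lists, 64 were higher (33.5%) and 26 were lower (13.6%), with a median log2 fold change of 0.22. Among other ERAD genes, 3 of 22 were higher and 4 were lower (13.6% and 18.2%, against 21.4% and 19.3% of all genes tested), and the largest fall was in Os9, a lectin that brings glycoproteins to the SEL1L and HRD1 complex, with 350 to 355 CPM at 0 h and 197 to 208 CPM at 48 h (log2 fold change -0.80 ± 0.11, edgeR adjusted p = 0.000274). Among other folding enzymes, 6 of 25 were higher and 4 were lower (24% and 16%, near the same shares), with Dnajc10, an ER reductase that works in ERAD, at 1.37 ± 0.13 and Sil1, a nucleotide exchange factor of BiP, at -0.74 ± 0.10 (log2 fold change). Among other regulators of the unfolded protein response, 5 of 14 were higher (35.7%), Creb3l2 among them (0.83 ± 0.13), and 3 were lower (21.4%), of which Tmbim6, a suppressor of IRE1 alpha activity, fell from 1866 to 2133 CPM to 951 to 1079 CPM (log2 fold change -0.99 ± 0.14, edgeR adjusted p = 0.00032).

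In the list of other translocon, signal peptidase and signal recognition genes, the machinery by which proteins enter the ER, 13 of 24 were higher (54.2%, against 21.4% of all genes tested) and 1 was lower (4.17%, against 19.3%). Sec61g, the gamma subunit of the channel to which Sec61b belongs, was at 11.1 to 15.5 CPM at 0 h and at 22.3 to 25.7 CPM at 48 h (log2 fold change 0.93 ± 0.15, edgeR adjusted p = 0.000604). Ssr3, a subunit of the translocon-associated complex, had a log2 fold change of 0.90 ± 0.13. For transport between ER and Golgi 8 of 20 were higher (40%) and 2 were lower (10%). For N-glycosylation 4 of 14 were higher (28.6%) and 1 was lower (7.14%). For UFMylation, a protein modification that acts on ER ribosomes, 2 of 7 were higher and 2 were lower (28.6% each), which is near the shares among all genes.

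Of the lists around the integrated stress response, those of eIF2 and of the tRNA synthetases held more rises than falls, and that of ATF4 targets held both. Of 15 genes for eIF2 and eIF2B subunits, eIF2 alpha kinases and phosphatases, 7 were higher (46.7%, against 21.4% of all genes tested), with Eif2s1, which encodes eIF2 alpha itself, at 16.8 to 20.9 CPM at 0 h and 32.8 to 34.8 CPM at 48 h (log2 fold change 0.78 ± 0.11, edgeR adjusted p = 0.000408), and 1 was lower (Eif2ak1, the heme-regulated kinase, -0.46 ± 0.11). Ppp1r15b, the constitutive counterpart of Ppp1r15a, was chosen for mention after its values were seen, and it was at 144 to 168 CPM at 0 h and at 130 to 145 CPM at 48 h (log2 fold change -0.18, edgeR adjusted p = 0.221). Of 20 cytosolic tRNA synthetases, 8 were higher (40%), led by Vars (1.31 ± 0.13), and 1 was lower (Tars, -0.85 ± 0.11). Of 23 other ATF4 target genes, 6 were higher and 5 were lower (26.1% and 21.7%), near the 21.4% and 19.3% of all genes tested.

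Among these ATF4 targets, Slc6a9, a glycine transporter, fell from 24.4 to 33.0 CPM at 0 h to 8.11 to 15.1 CPM at 48 h (log2 fold change -1.34 ± 0.22, edgeR adjusted p = 0.000897). Larger falls were in Vldlr, a lipoprotein receptor at under 2 CPM in every library (-1.89 ± 0.44), and Ndrg1 (-1.80 ± 0.19), both named after their values were seen. The largest rises of the list were in scarce genes named after their values were seen, namely Psat1 and Psph of serine synthesis and Mthfd2 of mitochondrial folate metabolism. Psat1 was at 0.211 to 0.443 CPM at 0 h and at 1.57 to 2.53 CPM at 48 h (7 to 85 counts), with a log2 fold change of 2.68 ± 0.35 (edgeR adjusted p = 0.000187). Mthfd2 had a log2 fold change of 2.24 ± 0.27 and Psph 1.62 ± 0.27. Of 7 CREBH target genes, 2 were higher and 2 were lower (28.6% each, near the 21.4% and 19.3% of all genes tested), with Apoa4 at 15.9 to 17.4 CPM at 0 h and 138 to 451 CPM at 48 h (log2 fold change 4.30 ± 0.38) and Apoa5 at 568 to 735 CPM and 294 to 408 CPM (-0.85 ± 0.16).

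**Figure D5:**
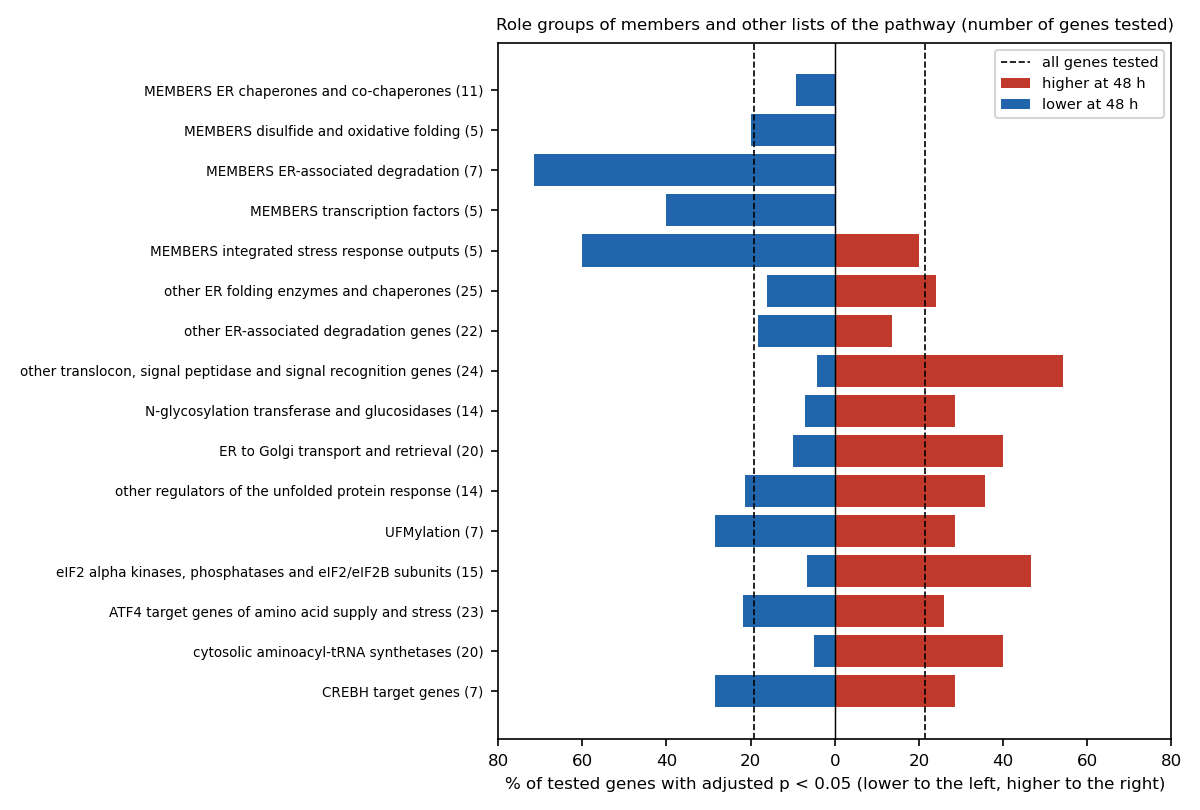
Percentage of tested genes (horizontal axis) with an adjusted p under 0.05, lower to the left and higher to the right, for role groups of the 37 genes with at least 5 members and for the other lists of the pathways, with the number of genes tested in parentheses and dashed lines at the percentages over all genes (19.3% and 21.4%). ERAD members reach 71.4% to the left and the translocon list 54.2% to the right, and with library size as the only scaling the chaperones, oxidative folding genes and transcription factors have 0 genes to the left.

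Depth was 31419443 to 36346220 gene counts per library at 0 h and 31684152 to 33093006 at 48 h, at which 3 counts are worth 0.0825 to 0.0955 CPM. Hepatocyte markers were abundant in every library, but their sum was 106104 to 124287 CPM at 0 h and 66857 to 76068 CPM at 48 h, with 5 of 10 genes lower and 0 higher. All 10 endothelial markers were lower (sum 232 to 362 CPM at 0 h and 170 to 185 CPM at 48 h), and 2 of 10 Kupffer cell markers were higher (78.4 to 118 CPM and 112 to 137 CPM). Stellate cell markers had 1 rise and 2 falls among 9 tested (69.5 to 113 CPM and 60.5 to 72.0 CPM), and cholangiocyte markers had 1 rise among 2 tested (9.16 to 20.7 CPM and 16.3 to 26.0 CPM). Plasma and B cell markers, of interest because such cells secrete protein heavily, summed to 1.97 to 2.42 CPM and 1.14 to 2.27 CPM with 2 falls among 3 tested and Tnfrsf17 at 0, and neutrophil markers summed to 0.09 to 0.41 CPM and 0.65 to 1.06 CPM with Mpo and Retnlg at 0. Immediate early genes, which respond to the isolation of cells, had 3 rises (21.4%) and 5 falls (35.7%) among 14, with Dusp1 at -1.40 ± 0.16 and Fosb at 1.82 ± 0.30 on the log2 scale. Of all genes tested, 21.4% were higher and 19.3% were lower. The shares of rises among immediate early genes and Kupffer cell markers (20%) were near that of all genes. Whether the changes in markers and immediate early genes had a part in the falls of Herpud1, Ppp1r15a and the other members was not tested.

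With library size as the only scaling, 5309 genes were higher and 2108 were lower (31.2% and 12.4%), against 3638 and 3288 with TMM, and of the 37 genes 4 were higher (Asns, Sec61b, Eif2ak3 and Sesn2) and 8 were lower. Asns, Chac1, Trib3, Ppp1r15a, Herpud1, Sel1l, Syvn1, Derl2 and Ern1 were called in the same direction in all 15 alternative analyses.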

How the data were processed

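RNA-Seq was performed on hepatocytes from 3 undamaged livers and 3 livers 48 h after PHx. The authors deposited raw counts per gene for each library. The submitters' processing notes name FastQC 0.11.5, Trim Galore 0.6.4, STAR 2.6, HTSeq 0.12.4 and DESeq2 on mm10. Whether the counting used strand is not given in the sources used here. Of the reads that HTSeq lists in the files, 24.3% to 32.7% were assigned to no gene and 4.27% to 5.29% to more than 1 gene, and these stayed out of the library sizes. All 55450 gene identifiers matched GENCODE M21.

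Counts were tested with edgeR 4.0.16 (R 4.3.3; TMM factors 0.913 to 0.950 at 0 h and 1.02 to 1.11 at 48 h; glmQLFit, then glmQLFTest for time, no other term). The filter required 10 counts or more in 3 or more libraries, and Benjamini-Hochberg adjustment ran over all 17037 genes that passed, with a threshold of 0.05. The steps were tested on simulated counts first. CPM are given on TMM library sizes, with SE and 95% intervals from the fit. A floor of 3 counts is worth 0.0825 to 0.0955 CPM in these libraries and covers counting error only. The files and groups were taken from the sample labels. Over all genes tested, replicate numbers did not pair the libraries (correlations of deviations from -0.138 to 0.0335), and pairing in single genes was not tested. No 2 libraries agreed within sampling noise.

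The 37 genes, the role groups, the other pathway lists and the marker lists were chosen with earlier results of these data known. Library values and statistics are given for members that passed the threshold, and outside the members the genes named are taken from the 3 largest rises and 3 largest falls of each list with a mean of at least 10 CPM, apart from marker genes at 0 in every library and genes said to be chosen after their values were seen. Alternatives were DESeq2 1.42.0, limma-voom (limma 3.58.1), 4 other scalings, 2 other filters, a replicate block and leaving out each library. Promoter windows are from RefSeq on GRCm38.p6. Protein sequences were not used here.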

Additional observations from a re-analysis of the deposited data

How the results depend on the processing

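Under DESeq2, limma-voom, RLE, upper quartile and protein-coding TMM factors, no filter, a stricter filter and the replicate block, all 14 members that had passed the test passed it again in the same direction. Library size as the only scaling was the setting that changed most. It gave 2108 lower genes, 4 members higher and 8 lower, and a member median of 0.0596. By role it gave 0 lower chaperones, 0 lower oxidative folding genes, 0 lower transcription factors, 1 higher translocon gene, 1 higher sensor and 2 higher outputs of the integrated stress response. Its counts higher and lower were 9 and 1 for other ERAD, 7 and 0 for N-glycosylation, 14 and 0 for ER to Golgi transport, 4 and 1 for UFMylation and 11 and 0 for eIF2, and its counts lower were 1 for other folding enzymes, 0 for the translocon list, 1 for other regulators and 1 for CREBH targets. Log2 fold changes that reversed there were Hsp90b1 0.18, Calr 0.0947, Canx 0.0636, Dnajc3 0.12, Sdf2l1 0.13, Manf 0.0408, Pdia3 0.20, Atf6 0.0596, Xbp1 0.12 and Ddit3 0.12. All of these moved with the shift of 0.20 in the median of all genes.

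Creld2 brought the lower chaperones to 2 with DESeq2, limma-voom, upper quartile, protein-coding TMM, no filter, the stricter filter and the replicate block, and Pdia4 brought oxidative folding to 2 with upper quartile and protein-coding TMM. Without a filter, 2 members and 1 translocon member were higher. Lower N-glycosylation genes numbered 3 with DESeq2 and the stricter filter, 2 with RLE and limma-voom, and 4 with upper quartile and protein-coding TMM. Upper quartile factors gave 7 lower other ERAD genes, 5 higher ER to Golgi genes and 8 lower immediate early genes, with Dnajb9 at -0.0135 and Dnajb11 at -0.00799. Derl1, at 0.00324, was at -0.00508 with DESeq2, -0.00502 with RLE, -0.0127 with no filter, -0.0126 with the stricter filter, -0.0502 with protein-coding TMM and -0.0825 with upper quartile. The causes were not tested.

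The replicate block, which pairs libraries by number only, gave 14 lower members and lower counts of 1 for other ERAD, 0 for the translocon list, 1 for ER to Golgi, 1 for UFMylation and 1 for CREBH targets. The correlations of deviations between libraries of the same number were 0.0335, -0.0674 and -0.138.

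Leaving out 1 library at a time gave 1 to 2 higher members and 10 to 15 lower members, a member median of -0.272 to -0.0902, and 0 to 2 lower chaperones, 1 to 2 lower oxidative folding genes, 0 to 1 higher sensors, 1 to 2 lower transcription factors and 0 to 1 higher translocon members. In the lists it gave 1 to 2 lower CREBH targets, 3 to 7 higher and 1 to 2 lower ER to Golgi genes, 2 to 4 higher and 1 to 2 lower N-glycosylation genes, 1 to 2 lower UFMylation genes, 5 to 9 higher tRNA synthetases, 1 to 5 lower other ERAD genes, 1 to 3 lower other regulators and 0 to 1 lower translocon genes. Signs that reversed ranged from -0.0121 to 0.275 for Atf5, -0.23 to 0.25 for Ddit3, -0.0615 to 0.0345 for Derl1, -0.0713 to 0.162 for Dnajb11, -0.0898 to 0.324 for Dnajb9, -0.153 to 0.0169 for Dnajc3, -0.0925 to 0.0540 for Hsp90b1, -0.0611 to 0.0705 for Pdia3 and -0.32 to 0.13 for Sdf2l1. Depth limits statements on Derl3, Trib3, Chac1 and Ddit3, which had fewer than 300 counts in any library. It also limits the level of Asns at 0 h, where the libraries held 122, 95 and 42 counts.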
